A study of Mus musculus with 12 samples.

Results

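Mature miRNAs were followed for 8 days in AKR-2B cells, a mouse fibroblast line, grown as colonies in soft agar with vehicle only. Soft agar holds cells in suspension, so that only anchorage-independent growth gives colonies. 3 small RNA libraries were made from recovered colonies, 1 each at day 2, day 4 and day 8. The members are the mature miRNAs with a mean of 10 or more CPM (reads per 1000000 of the scaled library total) over these 3 libraries, 364 of the 1281 listed in the count table. A parallel arm received 25 ng/mL TGFβ, a cytokine that acts on fibroblast growth and matrix production, for the same 2, 4 and 8 days, again with 1 library a day, and is used here beside the vehicle course. All libraries came from the same line in the same medium, and the labels name no genetic change in it. The question taken from the design is how miRNA levels at day 4 and day 8 compared with day 2 when no TGFβ was added.

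A miRNA is cut from a hairpin precursor, whose 5p and 3p arms can each give a mature strand of about the length of the sequences printed here. The mature strand guides a repressor complex to messenger RNAs, mainly through its seed, bases 2 to 8 from the 5′ end, so miRNAs with one seed are grouped as a family. In fibroblasts, miR-21, let-7, miR-125, miR-199 and miR-214 are known as abundant species. The miR-17-92 cluster is known for proliferating cells, miR-15/16 and miR-26 for growth arrest, and miR-146 and miR-155 for NF-kB signalling.

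The sequences below are the families in which members of one seed had different courses, or in which most measured members lay on one side of day 2. They are RefSeq mature sequences on build GRCm38.p6, 5′ to 3′, with the seed in capitals. 277 of the 364 members matched a sequence by name, and 87 did not and are named only.
The first 3 share the seed ACCCGUA.
miR-99a-5p: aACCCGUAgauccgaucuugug
miR-100-5p: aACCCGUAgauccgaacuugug
miR-99b-5p: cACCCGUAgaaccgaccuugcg
The miR-146 pair shares the seed GAGAACU.
miR-146b-5p: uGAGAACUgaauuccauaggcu
miR-146a-5p: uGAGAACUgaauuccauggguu
The family of miR-148 and miR-152 shares the seed CAGUGCA.
miR-152-3p: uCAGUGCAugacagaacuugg
miR-148b-3p: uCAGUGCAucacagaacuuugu
miR-148a-3p: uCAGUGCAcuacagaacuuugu
The miR-92 seed AUUGCAC is carried by 3 members.
miR-92b-3p: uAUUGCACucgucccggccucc
miR-92a-3p: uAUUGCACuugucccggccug
miR-25-3p: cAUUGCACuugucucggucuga
The miR-15/16 seed AGCAGCA is shown with miR-503-5p of the same list, whose seed is AGCAGCG.
miR-322-5p: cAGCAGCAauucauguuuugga
miR-16-5p: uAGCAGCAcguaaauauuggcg
miR-15b-5p: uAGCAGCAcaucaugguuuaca
miR-503-5p: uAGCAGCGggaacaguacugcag
The remaining sequences belong to miRNAs described one by one.
miR-140-3p: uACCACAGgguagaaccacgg
miR-26a-5p: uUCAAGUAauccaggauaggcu
miR-26b-5p: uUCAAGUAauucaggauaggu
miR-155-5p: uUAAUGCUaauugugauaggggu
let-7b-5p: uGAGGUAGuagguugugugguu
let-7i-5p: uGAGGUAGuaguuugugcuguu

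The vehicle libraries held 108716 reads in miRNAs at day 2, 232107 at day 4 and 414943 at day 8, so the day 2 library, the baseline of both contrasts, was the shallowest. One read there equalled 8.10 CPM, against 3.70 at day 4 and 2.20 at day 8. 153 members had fewer than 10 reads at day 2, and 9 had none. The members held 99.9% of the reads in each library. miR-26b-3p, miR-181a-2-3p and miR-1946b lay just inside the limit at 10.1 CPM each, and miR-3068-5p at 9.56, miR-30c-1-3p at 9.30 and miR-3471 at 9.09 CPM just outside. Of the 364 members, 341 also reached a mean of 10 CPM over the TGFβ libraries.

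The markers of a fibroblast or mesenchymal cell were present throughout. miR-214-3p and miR-21a-5p were at 28972 CPM or more in all 3 vehicle libraries, miR-143-3p, miR-199a-5p and miR-199a-3p at 5128 or more and miR-145a-5p at 1661 or more. The 4 leukocyte miRNAs had 0 reads in every vehicle library, which allows up to 24.3 CPM for each at day 2 and 6.60 CPM at day 8. The 6 erythroid and liver miRNAs had 0, 3 and 2 reads in all at days 2, 4 and 8. Of 16 miRNAs in the epithelial list 1 was a member, miR-203-3p, and the 16 had 27, 14 and 9 reads in all. Outside that list, the arms of miR-182, miR-183 and miR-96, known from sensory and epithelial tissue, had 741, 1344 and 1516 reads in all. Of 17 striated muscle miRNAs 1 was a member, miR-206-3p, and the 17 had 11, 6 and 7 reads in all. The 11 nerve miRNAs had 113, 271 and 424 reads in all, and 3 of them were members. No entry of the count table matched the endothelial list. The 86 miRNAs of the imprinted Dlk1-Dio3 cluster had 2, 1 and 1 reads in all.

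At day 8, 73 of the 364 members (20.1%) were at least 2-fold higher than at day 2 and 62 (17%) at least 2-fold lower. The 95% counting interval of the ratio excluded 1 for 53 of the higher ones (14.6%) and 49 of the lower ones (13.5%). At day 4, 48 members (13.2%) were at least 2-fold higher and 44 (12.1%) at least 2-fold lower, with intervals that excluded 1 for 28 each way (7.69% each). Of the higher ones, 8 at day 4 and 6 at day 8 had 0 reads at day 2 and a bound under 2-fold, so a 2-fold difference is not shown for them. These folds use a log2 change with added reads that average 2 over the 3 libraries, in proportion to library size. The intervals are exact binomial ones that cover counting error only and take each read as independent. The labels name no molecular identifiers for the reads, so copies of 1 molecule could not be told apart in the counts. With 1 library a day the vehicle course has no replicate error, so none of these differences was tested in it. In bulk RNA, fewer cells of a kind and less RNA per cell cannot be told apart. The median change over all members was -0.01 at day 4 and 0.09 at day 8 on the log2 scale. Scaling without the miRNAs numbered 1000 and above lowered these medians to -0.14 and -0.20, and the day 8 split became 53 higher and 90 lower.

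Both abundant and rare members differed between days. At day 8, 33.3% of the 84 members at 1000 CPM or more differed at least 2-fold from day 2, against 37.7% of 106 members between 100 and 1000 CPM and 38.5% of 174 below 100 CPM. At day 4 the shares were 15.5%, 21.7% and 32.2%. The highest of the 3 levels was at day 2 for 141 members, at day 4 for 90 and at day 8 for 133. Directly between day 8 and day 4, 29 members (7.97%) were at least 2-fold higher and 27 (7.42%) lower.

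**Figure D1:**
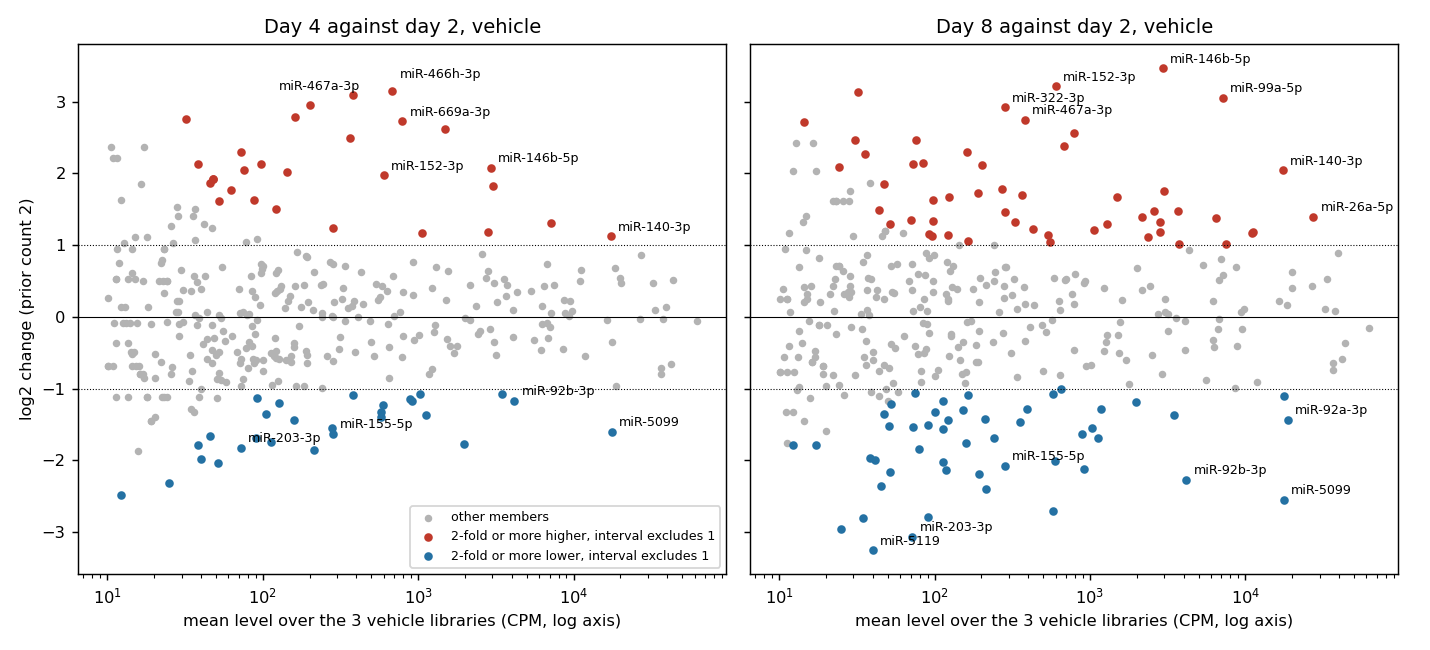
Log2 change of each of the 364 members against its mean level over the 3 vehicle libraries (CPM, log axis), at day 4 and at day 8 against day 2, red and blue marking changes of 2-fold or more whose counting interval excludes a ratio of 1. At day 8 the named increases reach miR-146b-5p at 3.47 on the log2 scale, and at day 4 miR-466h-3p and miR-467a-3p lie highest.

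The only test of a day effect averaged the vehicle and TGFβ arms, in an edgeR quasi-likelihood fit of day and treatment over the 6 libraries, with 309 miRNAs tested and Benjamini-Hochberg adjustment. For day 8 against day 2 it called 9 miRNAs as higher (2.91%) and 12 as lower (3.88%). For day 4 it called 0, where 26 had an unadjusted p under 0.05 and DESeq2 called 1. The fit does not test the vehicle course by itself. Its count depends on the settings and on single libraries. At day 8 the 21 became 0 without the treatment term, 54 with total counts, 58 with DESeq2 size factors, 62 with no filter and 52 by DESeq2. They became 1 without the TGFβ day 8 library, 12 without TGFβ day 4, 41 without TGFβ day 2 and 105 without vehicle day 2, and the 0 at day 4 became 46 without vehicle day 2 and 8 without TGFβ day 2. All 21 called at day 8 were members, and in the vehicle libraries alone the 9 were at least 2-fold higher and the 12 at least 2-fold lower. The vehicle libraries are part of the fit, so this is not a separate check of the calls. Scaled without the miRNAs numbered 1000 and above, miR-199a-3p, miR-181a-5p and miR-378a-3p were at 0.72, 0.87 and 0.88 on the log2 scale at day 8, short of 2-fold. With 1 library per arm and day, the residual of the fit holds the differences between the arms in their day changes. These p-values thus set the averaged day effect against how far the arms differed, and not against a spread between replicates. Nothing in the labels says that the libraries of different days came from separate cultures.

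miR-99a-5p, a family member known for restraining mTOR signalling, went from 1823 CPM (225 reads) at day 2 to 4524 at day 4 and 15204 CPM (6911 reads) at day 8. Day 8 was 8.34-fold above day 2 (95% counting interval 7.30 to 9.57), and the adjusted p over both arms was 0.0166 (edgeR). The TGFβ arm was at 2140, 4112 and 8027 CPM on the same days, 3.75-fold higher at day 8. miR-100-5p, which has the same seed, was at 6829, 8076 and 11116 CPM and ended 1.63-fold higher. miR-99b-5p, at 65152, 62860 and 58458 CPM the member with the highest mean level of all 364, ended 1.11-fold lower. The order within the seed family was thus 99b, 100, 99a at day 2 and 99b, 99a, 100 at day 8. The median of the 4 measured arms was 0.27 on the log2 scale at day 8 and -0.02 when scaled without the miRNAs numbered 1000 and above.

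The miR-99a hairpin lies at chr16:77598936-77599000 on the plus strand (GRCm38, GENCODE vM21), in an intron of the noncoding gene Mir99ahg, which also holds let-7c-1, and the miR-99b hairpin at chr17:17830188-17830257, in an intron of Spaca6 beside miR-125a. let-7c-5p, made from 2 loci, was at 24074, 23598 and 32408 CPM, 1.35-fold higher at day 8. miR-125a-5p was at 28506, 30584 and 41111 CPM, 1.44-fold higher, and miR-125b-5p, which has the same seed, at 30012, 33156 and 55672 CPM, 1.85-fold higher. miR-125 miRNAs are homologs of the worm timing regulator lin-4. The 6 members from the miR-99b, let-7e and miR-125a hairpins had a median of 0.34 on the log2 scale at day 8, with 1 at least 2-fold higher and 0 lower.

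The let-7 family, known for repressing growth-promoting mRNAs, made up between 15.2% and 17.7% of all reads in the 3 libraries. Of 17 measured arms 1 was at least 2-fold higher and 1 lower at day 8, and the median was 0.08 on the log2 scale, with -0.22 when scaled without the miRNAs numbered 1000 and above. let-7b-5p stood at 37157, 36408 and 39254 CPM and let-7a-5p at 9218, 9288 and 9620 CPM. let-7i-5p was the exception among the abundant ones, at 54824, 34930 and 36528 CPM, which is lower by 1.57-fold at day 4 and by 1.50-fold at day 8 (95% counting interval 1.46 to 1.54). With TGFβ, let-7b-5p went from 32122 to 14628 CPM and let-7i-5p from 63265 to 19368 CPM between day 2 and day 8. The family median there was -0.59 at day 8.

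miR-140-3p, from the cartilage miRNA gene whose hairpin overlaps an annotated exon of Wwp2 at chr8:107551244-107551313, was at 7112, 15475 and 29436 CPM (878, 4187 and 13380 reads). It was 2.18-fold higher at day 4 and 4.14-fold higher at day 8 (95% counting interval 3.87 to 4.44), with an adjusted p of 0.00642 over both arms (edgeR). The other arm of that hairpin, miR-140-5p, was at 348, 480 and 777 CPM, 2.23-fold higher at day 8. miR-455-3p, also known from chondrocytes, was at 227, 310 and 176 CPM, 1.29-fold lower, with an interval that includes a ratio of 1. The TGFβ arm had 6480, 21175 and 38883 CPM of miR-140-3p.

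Of the 4 measured arms of miR-26, known for growth arrest, 3 were at least 2-fold higher and 0 lower at day 8. The median of the 4 was 1.23 on the log2 scale. Over all members 20.1% were higher and 17% lower. Scaled without the miRNAs numbered 1000 and above, miR-26a-2-3p, among the 3, was at 0.88 on the log2 scale, short of 2-fold. miR-26a-5p went from 14978 to 27353 and 39503 CPM, 2.64-fold higher at day 8 (2.51 to 2.77, adjusted p 0.0418 over both arms by edgeR). miR-26b-5p went from 203 to 270 and 515 CPM, 2.54-fold higher (1.68 to 4.01). Their hairpins sit in the related phosphatase genes Ctdspl, Ctdsp2 and Ctdsp1. With TGFβ, miR-26a-5p was 2.05-fold higher at day 8 and miR-26b-5p 0.986 of its day 2 level.

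The other increases called over both arms were moderate in the vehicle libraries and came from abundant miRNAs. miR-378a-3p, whose gene is known from energy metabolism, was at 6942, 10881 and 15745 CPM, 2.27-fold higher at day 8 (adjusted p 0.0446, edgeR). miR-181a-5p was at 7031, 9983 and 15822 CPM, 2.25-fold higher without TGFβ and 7.54-fold with it (adjusted p 0.0446, edgeR). miR-30c-5p was at 2211, 2720 and 6149 CPM, 2.78-fold higher (adjusted p 0.0446, edgeR). From the miR-23/27/24 clusters, miR-23b-3p was at 1304, 1770 and 3432 CPM and miR-27b-3p at 3896, 5244 and 10157 CPM. At day 8 they were 2.63- and 2.61-fold higher (adjusted p 0.0423 and 0.0286, edgeR). Their paralogs from the other cluster, miR-23a-3p and miR-27a-3p, ended 1.91- and 1.19-fold higher. At day 4 the 5 miRNAs called over both arms were between 1.23-fold (miR-30c-5p) and 1.57-fold (miR-378a-3p) above day 2.

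miR-30 and miR-181 are families linked to differentiation. Of 9 measured miR-30 arms 2 were at least 2-fold higher and 0 lower at day 8, with a median of 0.43 on the log2 scale. miR-30d-5p, the most abundant of them, stayed at 15780, 15249 and 18330 CPM. Of 6 measured miR-181 arms 1 was at least 2-fold higher and 0 lower, with a median of 0.35. Both counts of higher arms are near the share over all members (20.1%). From the Hox clusters, miR-10a-5p was at 761, 1242 and 1881 CPM, 2.47-fold higher at day 8 (1.99 to 3.09), and miR-196b-5p at 72.9, 37.0 and 41.8 CPM with an interval that includes a ratio of 1.

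**Figure D2:**
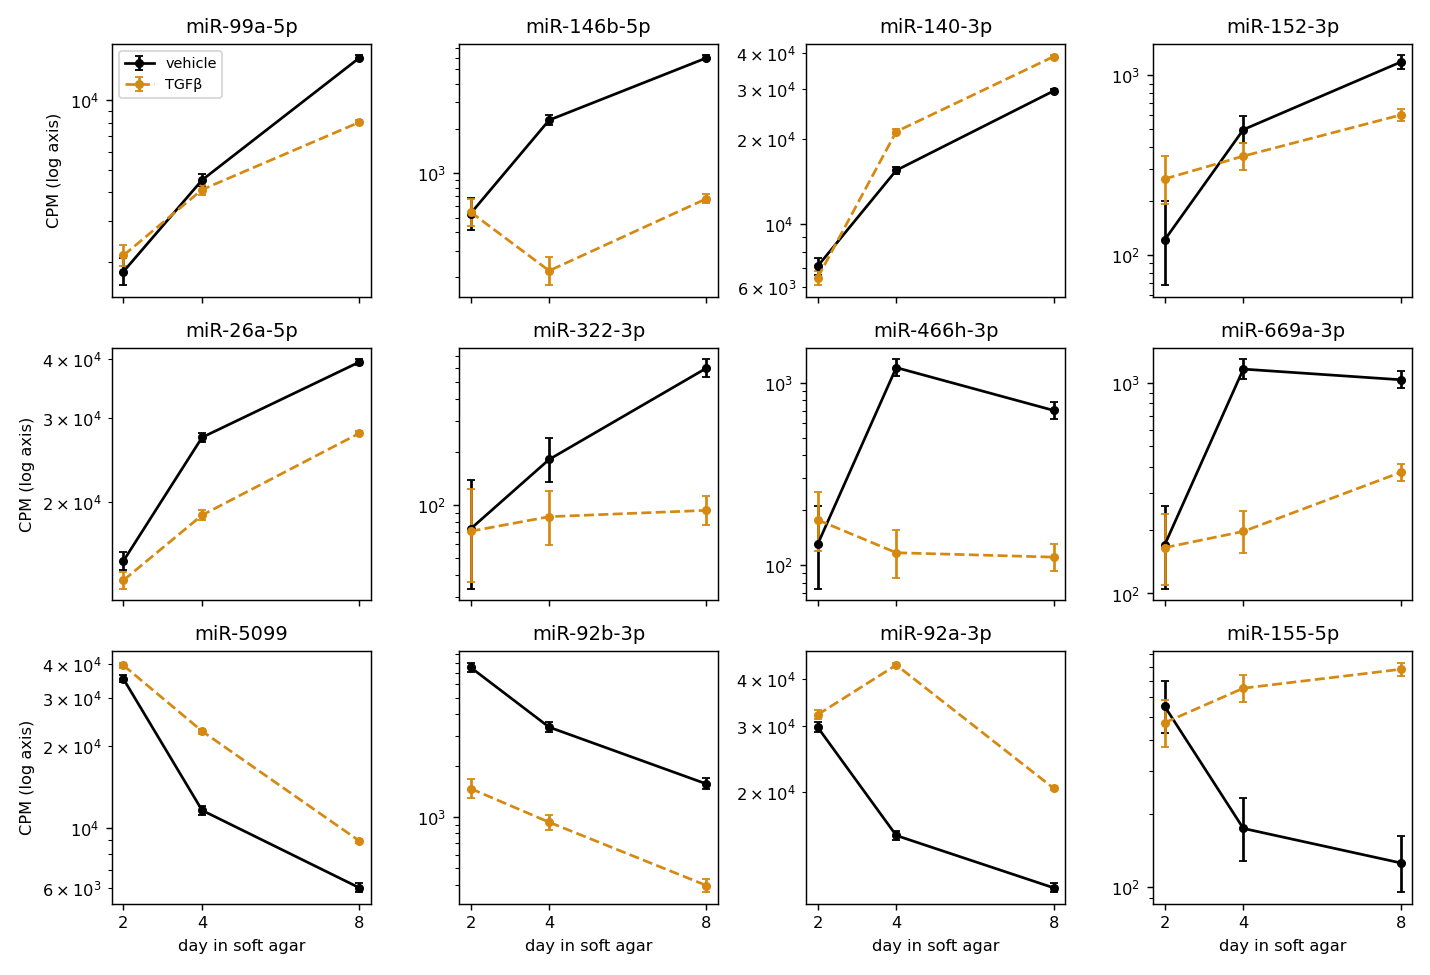
Level (CPM, log axis) of named miRNAs at days 2, 4 and 8, 1 library per point, with vehicle in black and TGFβ in orange and bars for the 95% counting interval. miR-99a-5p and miR-140-3p go up in both arms, whereas miR-146b-5p reaches 5984 CPM with vehicle and 674 CPM with TGFβ.

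The miR-92 arms were lower at high read counts. miR-92b-3p was at 7550, 3363 and 1562 CPM (932, 910 and 710 reads), lower by 2.24-fold at day 4 and by 4.83-fold at day 8 (95% counting interval 4.38 to 5.34). Its other arm, miR-92b-5p, was at 1134, 425 and 167 CPM, 6.78-fold lower at day 8, and both had an adjusted p of 0.0188 over both arms (edgeR). miR-92a-3p, of the same seed, was at 29785, 15257 and 11046 CPM, 2.70-fold lower at day 8 (2.58 to 2.81, adjusted p 0.0909 over both arms by edgeR). The third carrier of the seed, miR-25-3p, was at 1636, 1231 and 1921 CPM, 1.17-fold higher. With TGFβ, miR-92b-3p was at 1468, 931 and 396 CPM, so the arm began below the vehicle library, and miR-92a-3p at 32152, 43706 and 20427 CPM.

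The miR-17-92 cluster and its paralogs, which are known from proliferating cells, had 14 measured arms. At day 8, 7 of them were at least 2-fold lower and 1 higher, with a median of -0.94 on the log2 scale against 0.09 for all members. Over all members 17% were lower and 20.1% higher. The counting interval excluded 1 for 4 of the 7 lower arms and 0 of the higher, and 2 of the lower were under 10 CPM at day 8. The median was -0.53 at day 4, with 2 lower and 0 higher, where 12.1% of all members were lower and 13.2% higher. Summed, they were at 33990, 18339 and 14621 CPM, most of it miR-92a-3p. Within the cluster at chr14:115043684-115044496 (plus strand, exons of Mir17hg), 8 members had a median of -1.26, and 5 were at least 2-fold lower. Among the 8, miR-92a-3p and miR-19b-3p are each made from 2 loci, the other on chromosome X. Their reads thus cannot be assigned to this cluster alone. Counts were low outside miR-92a-3p: miR-18a-5p had 4, 0 and 2 reads, at least 2.92-fold lower at day 4. The same 8 members had a median of 0.69 in the TGFβ arm at day 8.

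The seed AAAGUGC is carried by 4 members, of which miR-17-5p and miR-20a-5p belong to this cluster. miR-17-5p had 20, 69 and 101 reads and miR-20a-5p 32, 35 and 75, ending 1.37-fold higher and 1.57-fold lower. miR-93-5p, from the miR-106b-25 cluster inside Mcm7, was at 616, 421 and 532 CPM, and miR-106b-5p had 1, 5 and 18 reads. The median of these 4 was 0.12 at day 8. With TGFβ, miR-93-5p was 5.11-fold higher at day 8. miR-222-3p, from a pair of hairpins that is also linked to proliferation, was at 11519, 8423 and 5766 CPM, 2.00-fold lower at day 8 (1.87 to 2.13), while miR-221-3p, of the same seed and transcribed beside it, was at 6035, 5621 and 7009 CPM, 1.16-fold higher.

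The miR-15/16 family is known for restraining the cell cycle. Of 10 measured arms 5 were at least 2-fold higher and 0 lower at day 8, where 20.1% of all members were higher and 17% lower. The median was 1.16 on the log2 scale, 0.93 with arms at 0 reads set to their bound, and 0.54 over the 12 arms with any read. Of the 5, 3 were under 10 CPM at day 2 and passed the minimum level through the later days. At day 4, 4 were higher on the log2 scale and 0 lower, with a median of 0.64, and the 4 include miR-503-5p, whose bound is under 2-fold. The counting interval excluded 1 for 2 of the 4 at day 4 and for 4 of the 5 at day 8. The 5 arms higher at day 8 were both arms of the X-linked miR-322 and miR-503 and miR-195a-5p. miR-195a-5p had 1, 8 and 18 reads, with an interval that includes a ratio of 1 at day 8. miR-322-3p was at 72.9, 181 and 598 CPM (9, 49 and 272 reads), 8.21-fold higher at day 8 (4.26 to 18.1), and miR-322-5p had 1, 2 and 35 reads, 9.51-fold higher (1.60 to 386). miR-503-5p had 0, 11 and 25 reads. With its 0 reads at day 2 set to 3 as a bound, it was 1.67-fold higher at day 4 and 2.26-fold at day 8. That bound leaves out the counting error of the later reads. miR-503-3p had 4, 14 and 76 reads, 5.16-fold higher at day 8. The family members on autosomes with more reads, miR-15b-5p at 543, 702 and 636 CPM and miR-16-5p at 259, 166 and 422 CPM, ended 1.17- and 1.63-fold higher.

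The X-linked hairpins form a cluster at chrX:53048008-53054327 on the minus strand (GRCm38.p6) with miR-351, miR-450 and miR-542. Of its 9 members 6 were at least 2-fold higher and 0 lower at day 8, with a median of 1.75 on the log2 scale, and 3, miR-503-5p among them, were higher at day 4, with a median of 0.71. Over all members 20.1% were higher and 17% lower at day 8, and 13.2% were higher at day 4. miR-503-5p and miR-322-5p, both among the 6, were under 10 CPM at day 2 and passed the minimum level through the later days. The most abundant of the cluster members was miR-351-5p, which carries the miR-125 seed. It was at 1369, 2510 and 3835 CPM (169, 679 and 1743 reads), 2.80-fold higher at day 8 (2.39 to 3.30). In the TGFβ arm miR-351-5p was at 0.890 of its day 2 level at day 8, miR-322-3p was 1.31-fold higher, and the cluster median was 0.38.

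**Figure D3:**
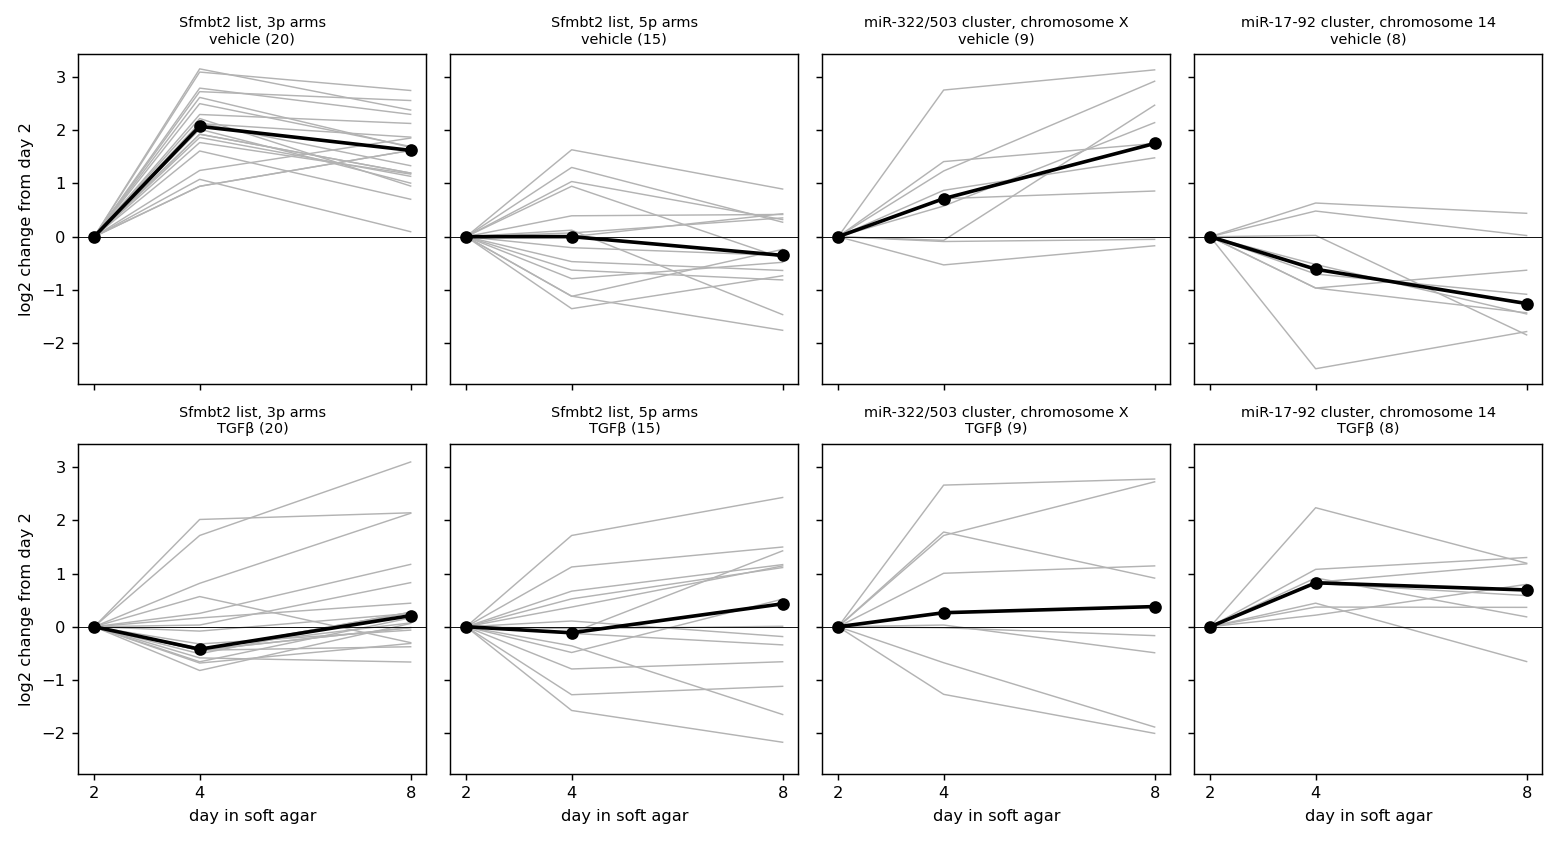
Log2 change from day 2 at days 4 and 8 for the members of 4 groups, vehicle above and TGFβ below, with 1 grey line per miRNA, the median in black and the number of members in each title. With vehicle the medians end at 1.62 for the Sfmbt2 3p arms, 1.75 for the X-linked cluster and -1.26 for the miR-17-92 cluster. In the Sfmbt2 and X-linked groups some arms were under 10 CPM at day 2 and passed the minimum level through the later days.

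The entries named miR-466, miR-467, miR-669 and miR-297, most of them from a repeat-rich cluster in mouse Sfmbt2, included miR-466h-3p and miR-467a-3p, the 2 largest day 4 increases among the members. GENCODE vM21 places 71 of the 81 hairpins of these names in introns of Sfmbt2, between chr2:10466663-10518279. Of 36 measured arms 22 were at least 2-fold higher and 3 lower at day 4, with a median of 1.46 on the log2 scale, or 1.27 with arms at 0 reads set to their bound. At day 8, 18 were higher and 2 lower, with a median of 0.98. The counting interval excluded 1 for 17 of the 22 and 1 of the 3 at day 4. At day 8 it did so for 10 of the 18 and 1 of the 2. miR-669c-3p, among the 22, had 0 reads at day 2 and a bound under 2-fold. Over the 61 arms with any read the medians were 0.61 at day 4 and 0.39 at day 8. Of the 36, 5 were under 10 CPM at day 2, and 2 of these are among the 22 and 3 among the 18. Over all members 13.2% were higher at day 4 and 20.1% at day 8. Their summed level was 4196, 10870 and 7476 CPM at days 2, 4 and 8, and 23 of the 36 were highest at day 4. The TGFβ arm summed to 4021, 2833 and 3553 CPM, with list medians of -0.12 and 0.26.

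The 3p and 5p entries of these names had different medians. Among the 20 entries named as 3p arms, 18 were at least 2-fold higher at day 4 and 17 at day 8, with medians of 2.07 and 1.62 and with 0 lower at either day. Their reads were 148, 2092 and 2244. The 18 include miR-669c-3p, whose bound at day 4 is under 2-fold. Among the 15 entries named as 5p arms, 3 were higher and 3 lower at day 4 and 0 higher and 2 lower at day 8, with medians of 0.00 and -0.35, on 353, 728 and 1018 reads. This division by arm was made after the values were seen.

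Among single entries, miR-466h-3p was at 130, 1209 and 704 CPM (16, 327 and 320 reads), 9.32-fold higher at day 4 (5.66 to 16.5) and 5.43-fold at day 8. miR-467a-3p had 8, 164 and 216 reads, 9.35-fold higher at day 4 (4.64 to 22.0) and 7.33-fold at day 8. miR-466f-3p was at 429, 2668 and 1388 CPM and miR-669a-3p at 170, 1164 and 1036 CPM. The 5p arm of highest level, miR-669c-5p, was at 1434, 1242 and 1122 CPM, and miR-467a-5p at 251, 251 and 341 CPM. None of the 36 was called in the fit over both arms. These hairpins are known as near copies of each other, and 4 of these entries had the same counts as another member in all 6 libraries, so the division of reads between entries is uncertain.

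miR-146b-5p had the largest day 8 increase on the log2 scale among the 364 members. It was at 535 CPM (66 reads) at day 2, 2280 (617 reads) at day 4 and 5984 CPM (2720 reads) at day 8, 4.27-fold and 11.2-fold above day 2 (8.77 to 14.5 at day 8). Its hairpin lies in an intron of Mfsd13a at chr19:46342762-46342870. With TGFβ it was at 548, 221 and 674 CPM. The fit over both arms, whose residual holds the difference between the arms, gave an adjusted p of 0.212 (edgeR). miR-146a-5p, of the same seed but from chromosome 11, was at 178, 115 and 132 CPM, 1.35-fold lower at day 8 with an interval that includes a ratio of 1, and 2.98-fold higher with TGFβ.

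miR-155-5p, the other miRNA of that list linked to inflammation, was at 551, 174 and 125 CPM (68, 47 and 57 reads), lower by 3.17-fold at day 4 and by 4.39-fold at day 8 (3.04 to 6.36). Its precursor overlaps an exon of the noncoding gene Mir155hg at chr16:84714140-84714204. With TGFβ it was at 472, 654 and 782 CPM, 1.66-fold higher. miR-210-3p, the hypoxia-induced miRNA, had 6, 13 and 29 reads, 1.31-fold higher at day 8 with an interval that includes a ratio of 1. miR-146b-5p and miR-155-5p thus began at similar levels and ended on opposite sides of day 2 with vehicle, by more than counting error.

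Among the carriers of the seed CAGUGCA, miR-152-3p was at 122, 499 and 1186 CPM (15, 135 and 539 reads), 4.11-fold higher at day 4 and 9.76-fold at day 8 (5.86 to 17.6). miR-148b-3p was at 567, 1290 and 1322 CPM, 2.33-fold higher at day 8, and nearly all of that was present at day 4. miR-148a-3p had 7, 14 and 15 reads, 1.72-fold lower with an interval that includes a ratio of 1. miR-152 and miR-148b lie in introns of the paralogs Copz2 and Copz1, and miR-148a in no annotated gene of its strand. In the TGFβ arm miR-152-3p was 2.27-fold and miR-148b-3p 3.41-fold higher at day 8 (adjusted p 0.0586 each over both arms, edgeR).

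Of the mesenchymal miRNAs, miR-21a-5p, a growth-associated miRNA, was at 50158, 28972 and 30131 CPM, lower by 1.73-fold at day 4 and by 1.66-fold at day 8. The TGFβ arm had 156412, 124469 and 119252 CPM. miR-214-3p was highest at day 4, at 40688, 58055 and 31541 CPM, which is 1.43-fold higher and then 1.29-fold lower than day 2. miR-199a-3p was at 5128, 6978 and 10382 CPM, 2.02-fold higher at day 8 (adjusted p 0.0446 over both arms, edgeR), and miR-199b-3p, whose mature sequence is the same, had the same ratio, so the 2 entries are 1 measurement. miR-199b-3p was not called (adjusted p 0.0571, edgeR), so the call on this sequence lies at the threshold. miR-199a-5p stayed at 9340, 9883 and 10094 CPM with vehicle and went to 47320 CPM with TGFβ. The list of 6 arms had a day 8 median of 0.76 with vehicle and 1.88 with TGFβ, with the sequence of miR-199a-3p and miR-199b-3p counted as 2 entries. The other arms were at 0.11 (miR-199a-5p), 1.00 (miR-199b-5p), 0.52 (miR-214-5p) and -0.37 (miR-214-3p) on the log2 scale with vehicle.

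miR-143-3p and miR-145a-5p, transcribed together in smooth muscle and mesenchymal cells, ended 1.54- and 2.16-fold higher, at 23518 and 3588 CPM. Of the 4 measured arms of this pair 2 were at least 2-fold higher at day 8, where 20.1% of all members were higher. Scaled without the miRNAs numbered 1000 and above, miR-145a-5p, among the 2, was at 0.81 on the log2 scale, short of 2-fold. miR-143-5p had 2, 24 and 55 reads, 7.47-fold higher (1.97 to 63.2). miR-29a-3p, which targets collagen mRNAs, was at 3232, 2539 and 3403 CPM with vehicle and at 2341, 8465 and 11498 CPM with TGFβ. miR-24-3p was at 15844, 23181 and 21027 CPM and miR-129-5p at 28076, 38962 and 30375 CPM, both highest at day 4.

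**Figure D4:**
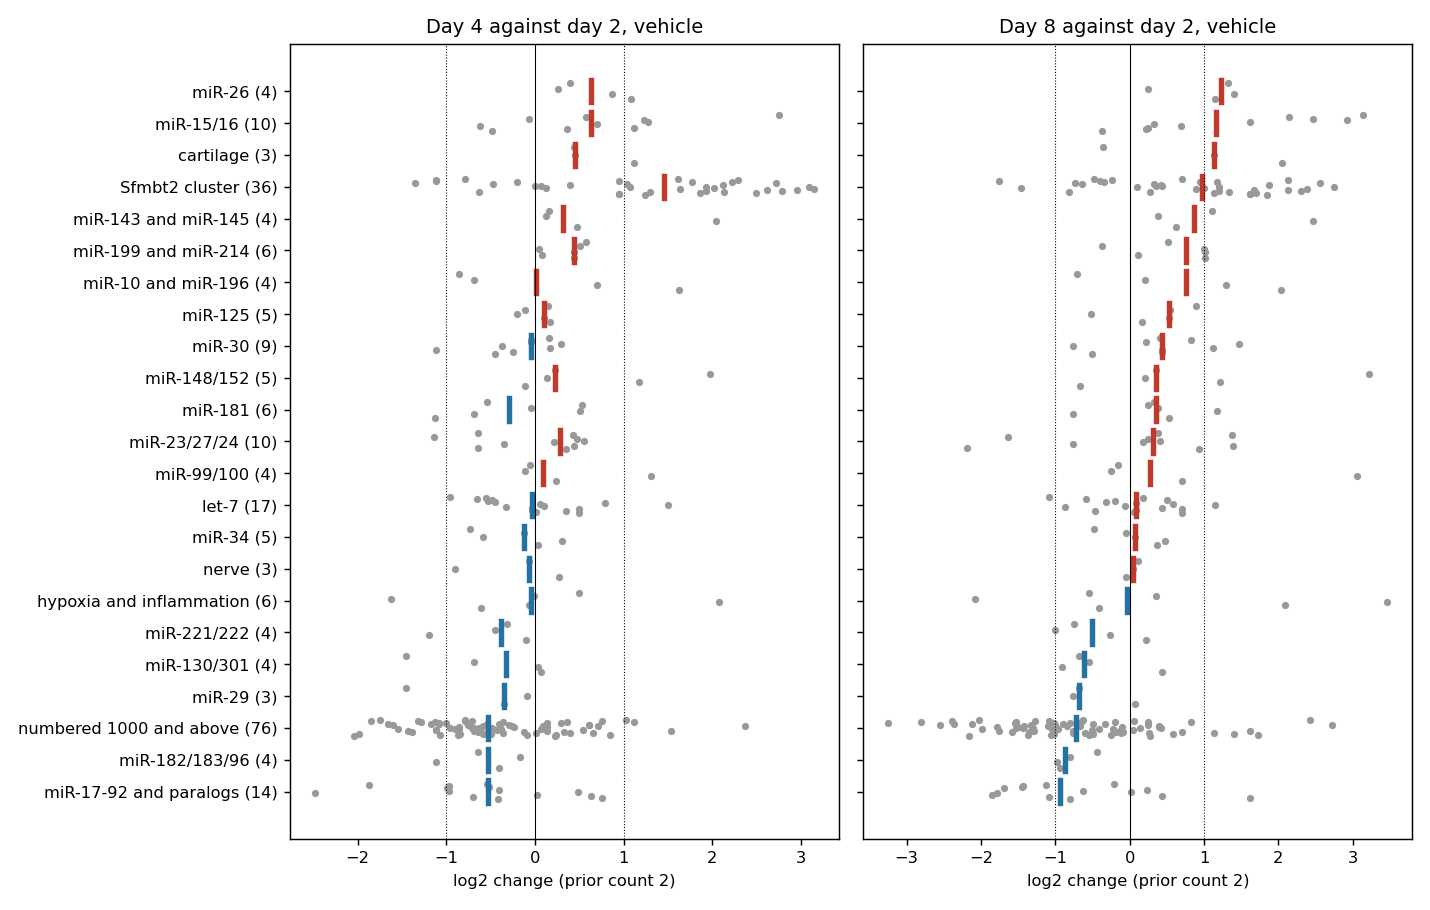
Log2 change of each measured arm (grey points) in each miRNA list at day 4 and day 8 against day 2 in the vehicle libraries, with the list median as a red (above 0) or blue (below 0) bar and the number of arms in brackets. The Sfmbt2 group has a median of 1.46 at day 4, and miR-26 and miR-15/16 are at 1.23 and 1.16 at day 8, the latter at 0.93 with its arm at 0 reads set to the bound, while miR-17-92 and paralogs are at -0.94 at day 8.

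The miR-34 family, a set of p53 targets, had 5 measured arms and none past 2-fold at either day, with a median of 0.08 at day 8 that became -0.20 when scaled without the miRNAs numbered 1000 and above. miR-34c-5p was at 1588, 954 and 1135 CPM and miR-34b-3p at 761, 942 and 1058 CPM. The cluster of miR-182, miR-183 and miR-96, known from sensory and epithelial tissue, was lower at day 8 in all 4 measured arms with none at -1 or below on the log2 scale, and had a median of -0.87 against 1.50 with TGFβ. miR-183-5p was at 3524, 3127 and 2022 CPM and miR-182-5p at 2341, 1763 and 1223 CPM. Of the nerve list, miR-9-5p at 332, 318 and 361 CPM and miR-128-3p at 535, 647 and 517 CPM had intervals that include a ratio of 1 at both days.

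miR-203-3p, the one miRNA of the epithelial list that reached the limit, had 20, 11 and 6 reads. It was 12.3-fold lower at day 8 than at day 2 (4.75 to 37.3). With TGFβ it was at 9.14 CPM at day 8 against 200 at day 2 (adjusted p 0.0188 over both arms, edgeR). miR-206-3p, from skeletal muscle, had 10, 5 and 7 reads, 5.26-fold lower at day 8 (1.81 to 16.3). Both had their most reads in the day 2 library, which was the shallowest. The part of other cell types in these values was not tested.

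Members numbered miR-1000 and above, which are later additions to the miRNA registry, took 14.2% of the reads at day 2, 8.14% at day 4 and 6.54% at day 8. Of the 76 measured, 32 were at least 2-fold lower and 6 higher at day 8, where 17% of all members were lower and 20.1% higher. The counting interval excluded 1 for 26 of the 32 and 2 of the 6. Of the 32, 6 were under 10 CPM at day 8, and 2 of the 6 higher had a bound under 2-fold. The median of the 76 was -0.72 on the log2 scale, and -0.13 over the 148 with any read. At day 4, 19 were lower and 4 higher, with a median of -0.53, or -0.03 over the 148. There the interval excluded 1 for 13 of the 19 and 0 of the 4, and 2 of the 4 had a bound under 2-fold. The other 288 members had 67 higher and 30 lower at day 8, with a median of 0.25. miR-5099 was at 35172, 11579 and 6015 CPM (4342, 3133 and 2734 reads), 5.85-fold lower at day 8 (5.57 to 6.14, adjusted p 0.00642 over both arms by edgeR). With TGFβ it was at 39433, 22609 and 8935 CPM. miR-6243 was at 48611, 29719 and 31253 CPM, miR-5109 at 16055, 11032 and 8593 CPM and miR-1249-3p at 5606, 2657 and 2163 CPM.

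Of the 12 miRNAs called lower over both arms, 6 were numbered 1000 and above: miR-5099, miR-6238, miR-5119, miR-5124a, miR-1195 and miR-6538. miR-6238 had 55, 32 and 36 reads, 5.63-fold lower at day 8, and miR-5119 had 10, 10 and 1, 36.8-fold lower (5.24 to 1598). The others were both arms of miR-92b, miR-203-3p, miR-709, miR-877-3p and miR-690. miR-690, in an intron of Fgf12 by annotation, was at 1985, 769 and 614 CPM, and miR-877-3p, in an intron of Abcf1, at 1069, 451 and 260 CPM. miR-709 had 24, 15 and 10 reads, 8.84-fold lower at day 8. All 12 were lower at day 4 than at day 2 as well, in values, and the reads behind the smaller ones are few.

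Set beside the TGFβ course, which shares no library with the vehicle course, the day 8 lists met in part. In the TGFβ arm 115 of the 364 members (31.6%) were at least 2-fold higher at day 8 and 73 (20.1%) lower. Both arms had 37 members at least 2-fold higher, which is 50.7% of the vehicle list and 32.2% of the TGFβ list, and 38 lower, 61.3% and 52.1% of the lists. 3 members higher with vehicle were at least 2-fold lower with TGFβ, and 4 went the other way. At day 4, 86 members were at least 2-fold higher with TGFβ (23.6%) and 40 lower (11%). Both arms then had 9 higher, 18.8% of the vehicle list and 10.5% of the TGFβ list, and 12 lower, 27.3% and 30.0% of the lists. Over the 364 members the changes of the arms had a Pearson r of 0.13 at day 4 and 0.46 at day 8, as a description, since members share libraries and scaling.

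GC content was lower in the higher class than in the lower class at day 8. Among the 277 members with a sequence, the 48 at least 2-fold higher at day 8 had a median GC content of 46.5%, the 49 lower 59.1% and the 180 within 2-fold 50%. At day 4 the medians were 47.6%, 50% and 50%. Across members the Pearson r of GC content and the log2 change was -0.23 at day 8 and -0.07 at day 4, and -0.19 at day 8 among the 223 numbered under 1000, given as descriptions over miRNAs of the same libraries. The median length was 22 bases in each class. The part of base composition in the day differences was not tested. Where both arms of a hairpin were members (91 hairpins), 60 pairs lay on one side of no change at day 8, and the arms of a pair differed by a median of 0.87 on the log2 scale.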

How the data were processed

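Small RNA was sequenced from AKR-2B colonies recovered from soft agar. The authors deposited a table of whole-number read counts per mature miRNA for 6 libraries (3 vehicle, 3 TGFβ), not normalized. A second table they deposited gives RPM, reads scaled by the authors to each library's total, per miRNA and precursor, and was used only for precursors and as a check (largest deviation from the counts 0.892% over 450 values of 50 or more reads). edgeR 3.9 and mm10 are listed in the submitters' processing notes with no role stated. The sources used here name no aligner or counter. The messenger RNA tables were not used here.

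Counts were scaled with TMM (edgeR 4.0.16, R 4.3.3) over the 6 libraries after filterByExpr, with factors of 0.838 to 1.17. CPM is reads per 1000000 of the scaled library total. Log2 changes add reads in proportion to library size, 2 on average over the 3 libraries of an arm. Ratios add none, and their 95% intervals are exact conditional binomial. Arms at 0 reads were set to 3 as a bound. A difference counts from 2-fold. The test of day over both arms was edgeR's quasi-likelihood test with treatment as a term, Benjamini-Hochberg adjustment and a threshold of 0.05. DESeq2 1.42.0 was an alternative. The edgeR test was also run on simulated counts whose levels and spread were taken from these data. Depth was 108716 to 414943 reads in the vehicle libraries.

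Members and lists were chosen with earlier results of these data known. Named by rule were the 12 largest changes each way at day 8 and 6 at day 4 whose interval excludes 1, the 10 most abundant, up to 4 of each list and all called by edgeR. miR-17-5p, miR-20a-5p, miR-106b-5p, miR-195a-5p, miR-351-5p, miR-467a-5p and the members just beside the limit were added after their values were seen. Alternatives were other scalings, added counts of 0.5 and 5, other minimum levels, thinning to the day 2 total and leaving out each library. Mature sequences are from RefSeq (GRCm38.p6), genes from GENCODE vM21.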

Additional observations from a re-analysis of the deposited data

Results flagged for a closer look

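miR-146b-5p differed in direction between the arms at day 4. Against day 2 it was 2.08 higher on the log2 scale with vehicle (66 and 617 reads) and -1.30 with TGFβ, 1 library each. The difference was not tested.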

How the results depend on the processing

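No paired analysis was possible because each condition and day has 1 library, so no replicate numbers pair; the arms were matched by day only through the treatment term of the edgeR fit. Of 1624 comparisons of 116 named miRNAs under other settings, 1536 moved by less than 1.5 times, 88 by more, and none turned a change of 2-fold or more into the opposite direction; of 462 list medians, 421 and 41. Named changes of 2-fold or more came out under 2-fold in 30 of 637 comparisons, 10 of them with scaling that leaves out the miRNAs numbered 1000 and above: miR-199a-3p, miR-199b-3p, miR-145a-5p, miR-181a-5p, miR-148b-3p, miR-140-5p and miR-378a-3p at day 8, miR-140-3p at day 4 and miR-26a-2-3p at both. Without a minimum level, 79 were at least 2-fold higher and 82 lower at day 4, and 95 lower at day 8. With a minimum mean of 100 CPM the counts were 17 and 19 at day 4 and 38 and 30 at day 8, from 190 miRNAs. With day 4 in place of day 2 as the baseline, an alternative chosen after seeing the data, 29 were higher and 27 lower at day 8. Without a minimum level the Sfmbt2 median was 0.61 at day 4 and 0.39 at day 8, miR-15/16 was 0.54 and the miRNAs numbered 1000 and above were at -0.13 at day 8. With 14 Sfmbt2 entries of 100 CPM or more the day 4 median was 2.26. In the edgeR test over both arms, calls at day 4 were 2 with DESeq2 size factors, 13 with no filter and 1 by DESeq2. At day 8 they were 54 with total counts, 58 with DESeq2 size factors, 62 with no filter, 52 by DESeq2 and 0 without a treatment term, where 57 had an unadjusted p under 0.05. Leaving out 1 library gave 0 to 46 calls at day 4 and 1 to 105 at day 8. The causes were not tested. Depth limits the rarest members: 153 had fewer than 10 reads at day 2, where 3 reads are 24.3 CPM.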
